A study of Mus musculus with 4 samples.

Results

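Eph receptors and ephrins were measured in 2 populations sorted from mouse colon crypts. The members were the 10 genes Ephb2, Ephb3, Ephb4, Ephb6, Epha1, Epha2, Epha4, Efna1, Efnb1 and Efnb2, that is 7 receptors and 3 ephrins. They were taken as every gene probe whose gene name on the arrays was one of these, which gave 14 probes of 41174 probes for 28307 gene names. Of these, 9 genes and 12 probes were well above background in at least 1 population on all 4 arrays and entered the tests. Ephb6 and the dimmer Efnb2 probe did not.

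Eph receptors are receptor tyrosine kinases, and ephrins are their ligands on the surface of neighbouring cells. A-class ephrins are held by a lipid anchor and B-class ephrins span the membrane, so that contact signals forward into the receptor cell and in reverse into the ephrin cell. In the intestinal crypt, Ephb2 and Ephb3 are known as targets of Wnt and Tcf signalling that are high near the crypt base, while Efnb1 and Efnb2 are high toward the crypt mouth, and repulsion between both sides keeps the cells in place.

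The mice were Lgr5-EGFP-ires-CreERT2 knockin mice, in which the promoter of Lgr5, the R-spondin receptor that marks stem cells at the crypt base, drives GFP. Both populations came from crypts of the normal colon of adult mice. One was sorted for GFP and is labelled Lgr5-GFP; the other was sorted with an antibody to the surface protein CD24 at its high level and is labelled CD24hi, which the design describes as a subset of goblet cells. Each of 4 arrays carried both RNAs in different dyes. There were 2 replicates, each with a first array, on which Lgr5-GFP-labelled RNA (the RNA of the population labelled Lgr5-GFP) was in Cy3, and a dye swap, on which it was in Cy5. Neither zygosity, sex, nor whether animals were pooled or replicates came from separate animals is given in the labels, so the p-values cover the spread between these samples alone, and that spread may be technical.

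The sort markers ran against the labels, and this bears on every direction given here. Lgr5 was lower in Lgr5-GFP-labelled RNA, at a log2 ratio of -3.41 ± 0.29 (SD, n = 2; limma, adjusted p = 0.00498), and Cd24a was higher there (2.32 ± 0.02; limma, adjusted p = 0.00498). The goblet cell mucin gene Muc2, checked with them, was higher in Lgr5-GFP-labelled RNA too (3.29 ± 1.26; limma, adjusted p = 0.00993). Each direction below is that of the labels, and if the labels were exchanged every higher would become lower. The dye swap of replicate 1 stood apart: the scanner software marked 75.9% of its spots as outliers, against 2.60% to 2.98% on the other arrays, and its ratios correlated across genes at 0.712 to 0.753 with the other arrays, which correlated at 0.924 to 0.959 among themselves. Marked spots were left out, so 6 of the 14 member probes had a value on that array. On the other 3 arrays all 14 had one. On the dye swap of replicate 1, 99.8% of spots were well above background in Lgr5-GFP-labelled RNA and 99.6% in CD24hi-labelled RNA. The filter for entering the tests counted marked spots, so it rested almost wholly on the other 3 arrays. The median log2 ratio of unmarked probes on the dye swap of replicate 1 was -0.40, against -0.04 to -0.03 on the other arrays. A low ratio on that array was therefore common among its unmarked probes, and 5247 of 14611 tested genes had a value there. With marked spots kept out of the dye normalization that median was -0.09. All 11 epithelial markers looked for, Epcam, Cdh1, Vil1, keratins, claudins and Cdx factors among them, were measured, and 1 of them, Krt8 (-0.56 ± 0.19), passed the test. Over all genes tested, 37.7% passed it.

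Of the 9 members tested, 4 were lower and 1 was higher in Lgr5-GFP-labelled RNA, and the marker genes of the sorts contradict that label. The receptors Epha2 and Epha4 and the ephrins Efnb1 and Efna1 were lower, and the ephrin Efnb2 was higher. Epha2 was 4.05-fold lower and Epha4 3.53-fold lower, while the ephrins differed by 1.54-fold to 2.17-fold. Ephb2 and Ephb3, the B-class receptors of the crypt base, did not pass the test, nor did Ephb4 and Epha1. Over all 14611 genes tested, limma called 37.7% (adjusted p under 0.05), 21.5% lower and 16.2% higher, so calls were common and a count of 5 of 9 was not tested against them. The median log2 ratio of the 9 members was -0.56, and that of all genes was -0.09. In such bulk RNA, fewer cells of a type and less RNA per cell cannot be told apart.

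Without the dye swap of replicate 1, 6 members were lower and 1 was higher, with Ephb3 and Epha1 added to the 5 named above, and limma called 57.7% of 14517 genes (30.7% lower and 26.9% higher). The median of the members was then -0.38 and that of all genes -0.06. With the same array left out, neither Ephb3 nor Epha1 was called in the series table (limma, adjusted p = 0.0587 and 0.0559) or with the processed signals (limma, adjusted p = 0.114 and 0.0517). Without the first array of replicate 1, 6 members could be tested and only Efnb1 was called (-1.33; limma, adjusted p = 0.0499, and 4.31e-04 to 0.0765 over all alternatives), as replicate 1 then rested on its dye swap alone. In that fit 8.42% of 5881 genes were called.

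**Figure D1:**
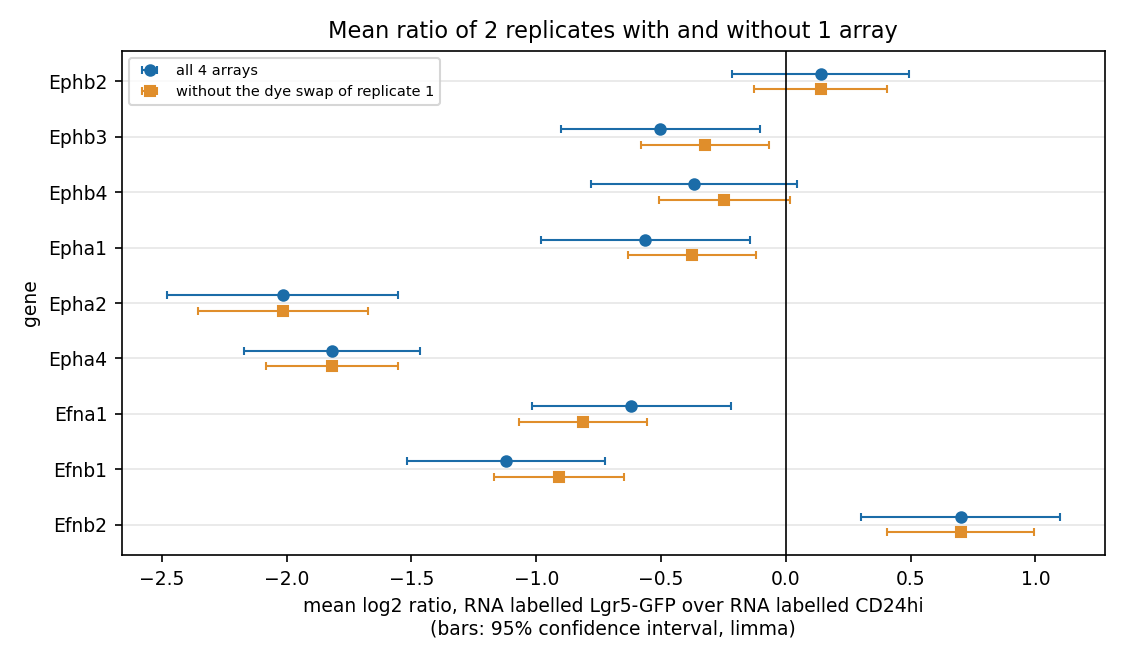
Mean log2 ratio of Lgr5-GFP-labelled RNA over CD24hi-labelled RNA (x axis) for the 9 members tested (y axis), with all 4 arrays (circles) and without the dye swap of replicate 1 (squares); bars are limma's 95% confidence intervals over 2 replicates. Epha2 and Epha4 lie farthest to the left at -2.02 and -1.82, Efnb2 lies to the right at 0.70, and the interval of Ephb2 includes 0 in both settings.

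The A-class receptors held the members' largest differences. Epha2 is a receptor of A-class ephrins that is common in epithelia. Its probe (chromosome 4, 140885139 to 140885198, mm9, plus strand) read 256 in Lgr5-GFP-labelled RNA and 1793 in CD24hi-labelled RNA on the first array of replicate 1, 108 and 466 on that of replicate 2, and 239 and 641 on the dye swap of replicate 2. These are mean spot brightnesses before any correction. For the member probes on these 3 arrays local background was 46 to 55 in the green channel and 122 to 138 in the red. After correction the log2 ratios were -2.27, -1.61 and -1.93 in the same order. All 3 arrays with a value were low in Lgr5-GFP-labelled RNA, and the spot was marked on the fourth. The mean was -2.02 ± 0.35 (SD, n = 2; 95% interval -2.48 to -1.55; limma, adjusted p = 0.00524), which placed Epha2 at percentile 1.3 of all genes tested.

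Epha4 binds ephrins of both classes. It had a pair of probes on chromosome 1 (mm9, minus strand), one at 77365747 to 77365806, which stands for the gene, and a second at 77364688 to 77364747. The first was the brighter by its mean over all 4 arrays, which counts its marked spot on the dye swap of replicate 1. It read 102 in Lgr5-GFP-labelled RNA and 463 in CD24hi-labelled RNA on the first array of replicate 1, 117 and 572 on that of replicate 2, and 184 and 442 on the dye swap of replicate 2. Its log2 ratios were -1.74, -1.78 and -2.00, and its mean was -1.82 ± 0.11 (95% interval -2.17 to -1.46; limma, adjusted p = 0.00505). The second probe read 117 and 735, 110 and 439, and 198 and 403 on the same arrays, so the order of brightness rested on that marked spot. It gave -2.17, -1.45 and -1.60 on these arrays and -0.91 on the dye swap of replicate 1. The mean was -1.53 ± 0.01 (limma over all probes, adjusted p = 0.00661), or -1.85 ± 0.45 without that array (limma, adjusted p = 2.15e-04). The SD of 0.01 is that between replicate means and does not show the spread within replicate 1, which averaged -2.17 and -0.91. Both probes were therefore low in Lgr5-GFP-labelled RNA on every array where they had a value. Their difference (0.29 ± 0.11, limma over 4349 probe pairs, adjusted p = 0.254) did not pass the test. It set unlike arrays side by side, as only the second probe had a value on the dye swap of replicate 1. Without that array the difference was -0.03 ± 0.56 (limma, adjusted p = 0.928).

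The sizes of both differences moved with the treatment of background. Lgr5-GFP-labelled RNA lay close to background on these probes: it was well above it on 2 of 3 arrays for the first Epha4 probe, on all 4 for the second and on all 3 for Epha2. The first Epha4 probe thus passed the filter on dim probes through CD24hi-labelled RNA alone. The fourth array of the second probe was the dye swap of replicate 1, where 99.8% of spots were well above background in Lgr5-GFP-labelled RNA. With signal above background asked for in both populations, the second probe stood for Epha4 and gave -1.53 (limma, adjusted p = 0.00241). With the scanner software's processed signals the log2 ratio of Epha4 was -3.28 by its first probe and -2.37 by its second, and that of Epha2 was -2.70.

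The promoters of this pair are shown because they belong to the members with the largest ratios and differ in a Tcf/Lef core motif. Each is the 250 bases before the RefSeq start of the gene (GRCm38.p6, another build than the arrays' mm9), written in the direction of the gene, at chr4:141300971-141301220 (plus strand) for Epha2 and chr1:77515089-77515338 (minus strand) for Epha4. Capitals mark TCAAAG or its reverse complement CTTTGA.
Epha2: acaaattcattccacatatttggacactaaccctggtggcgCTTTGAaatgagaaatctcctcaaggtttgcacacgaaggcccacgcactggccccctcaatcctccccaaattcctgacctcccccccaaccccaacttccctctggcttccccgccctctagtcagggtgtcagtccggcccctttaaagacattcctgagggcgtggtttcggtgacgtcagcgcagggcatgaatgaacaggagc
Epha4: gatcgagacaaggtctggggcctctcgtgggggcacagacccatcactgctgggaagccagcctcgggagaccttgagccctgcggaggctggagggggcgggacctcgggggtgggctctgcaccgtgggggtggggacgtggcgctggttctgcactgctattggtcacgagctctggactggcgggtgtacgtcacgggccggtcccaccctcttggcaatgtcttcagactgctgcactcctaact
The motif is present once in the Epha2 window and not in that of Epha4. Over the members, 1 of 11 windows (Efna1 has a pair of starts) held TCAAAG on either strand, against 13.8% of 32851 windows of the same length over all genes. No window of Ephb2 or Ephb3 held it. The GC box GGGCGG, counted on both strands as GGGCGG or CCGCCC and without regard to the first motif, stood in 9 of 11 member windows, and in 32.7% of all windows. These are matches of letters, and binding was not measured here.

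Epha1, the founding member of the receptor family, is found in many epithelia. Its probe (chromosome 6, 42308583 to 42308642, mm9, minus strand) gave log2 ratios of -0.39 and -1.13 on the first and swapped arrays of replicate 1 and -0.24 and -0.50 on those of replicate 2. All 4 arrays were low in Lgr5-GFP-labelled RNA, and the dye swap of replicate 1 was the lowest. The mean of -0.56 ± 0.28 missed the threshold (95% interval -0.98 to -0.14; limma, adjusted p = 0.0512). Without that dye swap the mean was -0.38 ± 0.01 and passed it (limma, adjusted p = 0.0207, and 0.0151 to 0.407 over all alternatives).

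**Figure D2:**
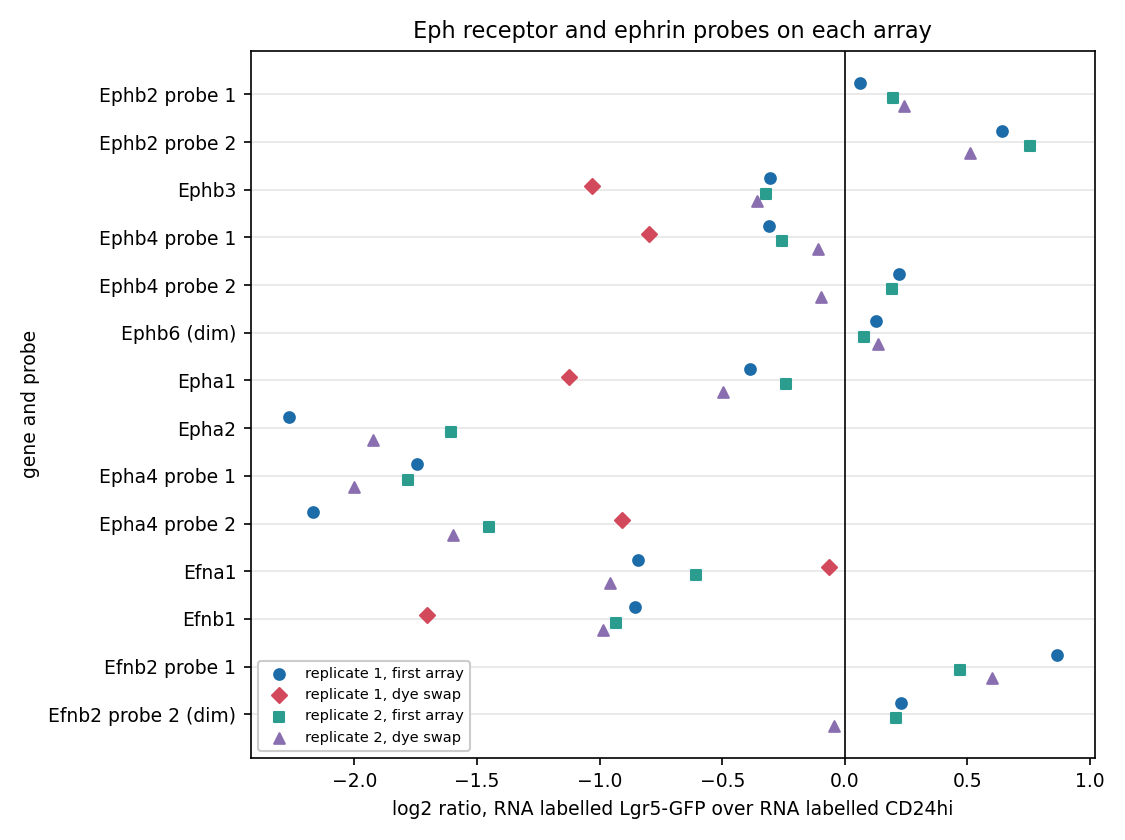
Log2 ratio of Lgr5-GFP-labelled RNA over CD24hi-labelled RNA (x axis) of each of the 14 member probes (y axis) on each array, with 1 symbol per array and no symbol where the spot was marked; probe 1 is the one that stands for the gene, and probes called dim were not tested. On the dye swap of replicate 1 (diamonds) Ephb3, Ephb4, Epha1 and Efnb1 lie lower than on the other arrays, and Efna1 (-0.06) and the second Epha4 probe (-0.91) lie higher.

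Among the B-class receptors tested, limma called none of Ephb2, Ephb3 and Ephb4, and Ephb3 had an unadjusted p of 0.0237. Ephb2 is the receptor used to sort crypt cells by their position. Its brighter probe (chromosome 4, 136210602 to 136210661, mm9, minus strand) read 1526 in Lgr5-GFP-labelled RNA and 2231 in CD24hi-labelled RNA on the first array of replicate 1, 1142 and 1487 on that of replicate 2, and 1398 and 1122 on the dye swap of replicate 2. The population in the red channel was the brighter one on the first arrays and on the swap alike. After dye normalization the log2 ratios were 0.06, 0.20 and 0.24, with a mean of 0.14 ± 0.11 (95% interval -0.22 to 0.49; limma, adjusted p = 0.453). With median centring of each array in place of loess the sign turned, at -0.11, where the median of all genes was -0.27.

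The second Ephb2 probe lay 5′ of the first and gave another answer. It is 60 bases long and spans 1398 bases of the genome (chromosome 4, 136213476 to 136214873), so the file's coordinates place it across an intron. Its log2 ratios were 0.64, 0.75 and 0.51, all higher than those of the first probe, with a mean of 0.64 ± 0.01 (limma over all probes, adjusted p = 0.0233, where 36% of 20243 probes were called). It was dim, with 185, 147 and 202 in Lgr5-GFP-labelled RNA and 236, 182 and 114 in CD24hi-labelled RNA, though well above background in both on all 3 arrays. Its log2 ratio was 1.43 with the processed signals and 1.39 in the authors' series table. The difference between the probes was 0.50 ± 0.12 (95% interval 0.12 to 0.88; limma, adjusted p = 0.0863), and 13.8% of 4349 probe pairs over all genes were called. Without the dye swap of replicate 1 the same difference was called (limma, adjusted p = 0.0189), as were 33.2% of 4292 pairs.

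Ephb3, the other B-class receptor of the crypt base, had 1 probe (chromosome 16, 21223025 to 21223084, mm9, plus strand). Its log2 ratios were -0.30 and -1.03 on the first and swapped arrays of replicate 1 and -0.32 and -0.36 on those of replicate 2. All 4 arrays were low in Lgr5-GFP-labelled RNA, and the dye swap of replicate 1 lay far below the other 3, which lay close together. The mean was -0.50 ± 0.23 (95% interval -0.90 to -0.11; limma, adjusted p = 0.0588), not called. Without that array it was -0.32 ± 0.03 and called (limma, adjusted p = 0.0378, and 0.0260 to 0.465 over all alternatives).

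Ephb4, the receptor of ephrin-B2 that is best known from veins, had a pair of probes that lay on either side of 0. The brighter (chromosome 5, 137815289 to 137815348, mm9, plus strand) gave -0.31 and -0.80 in replicate 1 and -0.26 and -0.11 in replicate 2, with a mean of -0.37 ± 0.26 (95% interval -0.78 to 0.04; limma, adjusted p = 0.130). It was low in Lgr5-GFP-labelled RNA on all 4 arrays. The dimmer probe, whose genome position was not analysed here, had log2 ratios of 0.22, 0.19 and -0.10 on the 3 arrays with a value, with a mean of 0.13 ± 0.12 (limma over all probes, adjusted p = 0.452). The difference between the probes was 0.50 ± 0.39 (limma, adjusted p = 0.134), or 0.38 ± 0.21 without the dye swap of replicate 1 (limma, adjusted p = 0.0605).

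Ephb6, a receptor whose kinase domain lacks activity, was well above background in neither population on any of 3 arrays (chromosome 6, 41569264 to 41569323, mm9, plus strand). Its probe read 92 and 156 on the first array of replicate 1, 88 and 147 on that of replicate 2 and 149 and 85 on the dye swap of replicate 2, in Lgr5-GFP-labelled and CD24hi-labelled RNA in that order. On the dye swap of replicate 1, where the spot was marked, the same probe read 7210 and 1991. With no filter on dim probes the log2 ratio of Ephb6 was 0.12 ± 0.01 (limma, adjusted p = 0.439), with both populations near background.

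The probes behind these differences are shown 5′ to 3′ as the arrays carry them: the intron-crossing probe of Ephb2 and the dimmer probe of Ephb4, whose mean ratios lay above those of their partners by differences that did not pass the test, and the probe of Ephb6, which had no signal well above background.
Ephb2: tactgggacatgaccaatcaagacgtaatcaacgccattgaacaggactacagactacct
Ephb4: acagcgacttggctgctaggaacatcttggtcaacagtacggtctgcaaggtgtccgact
Ephb6: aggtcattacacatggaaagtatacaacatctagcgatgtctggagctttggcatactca
All are 60 bases long, and no part is marked.

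The ephrins ran in both directions. Efnb1, a transmembrane ligand of B-class receptors, read 2387 in Lgr5-GFP-labelled RNA and 6409 in CD24hi-labelled RNA on the first array of replicate 1, 1406 and 3891 on that of replicate 2, and 2350 and 4285 on the dye swap of replicate 2 (chromosome X, 96343505 to 96343564, mm9, plus strand). Log2 ratios were -0.86 and -1.71 on the first and swapped arrays of replicate 1 and -0.93 and -0.99 on those of replicate 2. All 4 arrays were low in Lgr5-GFP-labelled RNA, and the dye swap of replicate 1 was the lowest. The mean was -1.12 ± 0.23 (SD, n = 2; 95% interval -1.52 to -0.72; limma, adjusted p = 0.00962), a 2.17-fold difference. It was -0.91 ± 0.07 without that array (limma, adjusted p = 4.31e-04).

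Efna1, a lipid-anchored ligand of Epha2, was lower too (chromosome 3, 89076171 to 89076230, mm9, minus strand). Log2 ratios were -0.84 and -0.06 on the first and swapped arrays of replicate 1 and -0.61 and -0.96 on those of replicate 2. The ratio lay near 0 on the swapped array of replicate 1, and the other arrays were all low in Lgr5-GFP-labelled RNA. The spot read 334 in Lgr5-GFP-labelled RNA on the first array of that replicate and 25664 on its dye swap, 76.7 times as much, although it was not marked there. For the other member probes with a value on both arrays the same factor was 1.88 to 12.1. The mean of Efna1 was -0.62 ± 0.23 (95% interval -1.02 to -0.22; limma, adjusted p = 0.0360), and -0.81 ± 0.04 without the dye swap of replicate 1 (limma, adjusted p = 6.85e-04, and 6.85e-04 to 0.732 over all alternatives). Its call was lost in 7 of 24 alternatives with a test.

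Efnb2, the transmembrane ligand best known from arteries, was the member that was higher in Lgr5-GFP-labelled RNA. Its brighter probe (chromosome 8, 8618177 to 8618236, mm9, minus strand) read 346 and 360 on the first array of replicate 1, 269 and 349 on that of replicate 2 and 411 and 254 on the dye swap of replicate 2, in Lgr5-GFP-labelled and CD24hi-labelled RNA in that order. Log2 ratios were 0.86, 0.47 and 0.60. All 3 arrays with a value were high in Lgr5-GFP-labelled RNA, and the spot was marked on the fourth. The mean was 0.70 ± 0.23 (95% interval 0.30 to 1.10; limma, adjusted p = 0.0267), a 1.62-fold difference. The dimmer probe (chromosome 8, 8619222 to 8619281) was well above background in neither population on any of 3 arrays, and its log2 ratios of 0.23, 0.21 and -0.05 lay below those of the brighter one on each array. With median centring in place of loess the log2 ratio of Efnb2 was 0.40 and no longer called (limma, adjusted p = 0.0868, and 0.00261 to 0.130 over all alternatives).

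In the setting used, the ratios ran from lowest to highest from Epha2 and Epha4 through Efnb1, Efna1, Epha1, Ephb3 and Ephb4 to Ephb2 and Efnb2. Epha4 came before Epha2 with the processed signals, in the series table (-3.28 and -2.63) and with a normexp offset of 16 (-2.33 and -2.27). The 95% intervals of all neighbours in this order overlapped, least so those of Epha4 and Efnb1 (-1.46 as the upper end of the one and -1.52 as the lower end of the other) and those of Ephb2 and Efnb2 (0.49 and 0.30). Differences between neighbours were not tested. Unlike arrays stood side by side here, as Epha2, Epha4, Ephb2 and Efnb2 had no value on the dye swap of replicate 1. Without that array the order was the same, with Efnb1 at -0.91, Epha1 at -0.38 and Ephb3 at -0.32. The intervals of Epha4 and Efnb1 then no longer overlapped (-1.55 and -1.17). Efnb1 and Efnb2, both ligands of B-class receptors, lay on opposite sides of 0, and their intervals did not overlap.

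**Figure D3:**
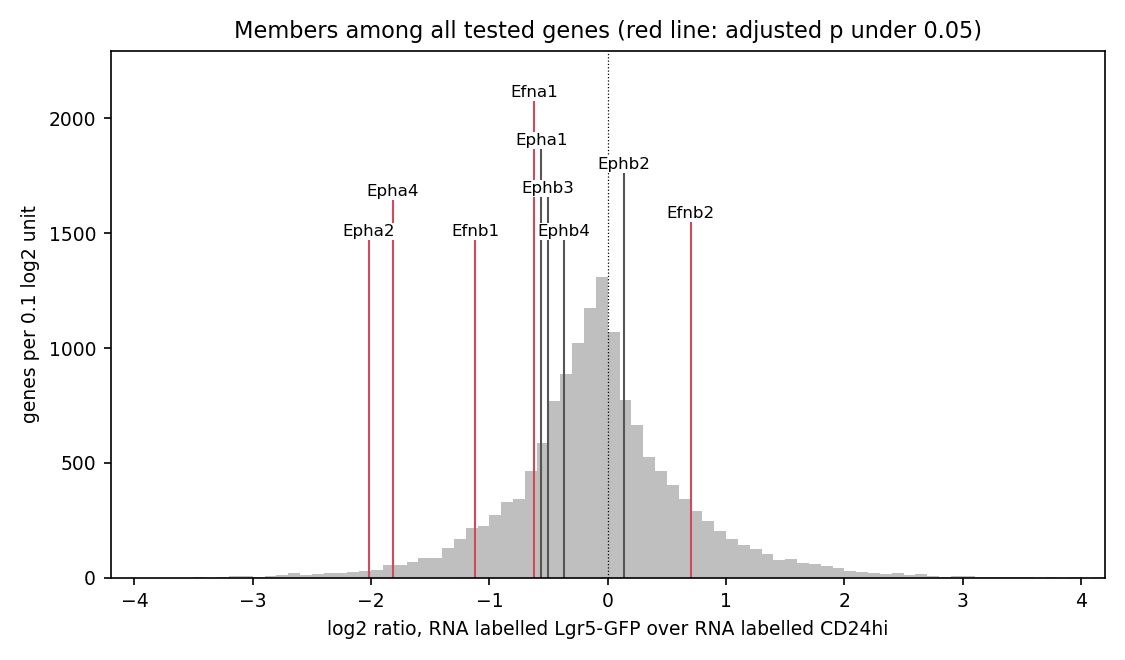
Number of genes per 0.1 log2 unit (y axis) against the log2 ratio of Lgr5-GFP-labelled RNA over CD24hi-labelled RNA (x axis) for all 14611 genes tested (grey), with the 9 members as lines, red where limma's adjusted p was under 0.05; line height has no meaning. Epha2 (percentile 1.3) and Epha4 (percentile 1.9) lie in the lower tail, Efnb2 lies at percentile 87.2, and the other members lie between percentiles 7.3 and 67.8.

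Of 12 other Eph and ephrin genes, 4 were measured, and 2 of these were lower in Lgr5-GFP-labelled RNA. Over all genes tested, limma called 21.5% lower. Efna4, another lipid-anchored ephrin, gave -1.27 on the first array of replicate 1 and -0.89 and -0.76 on the arrays of replicate 2, with a mean of -1.05 ± 0.32 (limma, adjusted p = 0.0137). Epha7, a receptor not well above background in Lgr5-GFP-labelled RNA, was lower there at a measured -0.63 ± 0.18 (limma, adjusted p = 0.0298), and no lower bound apart from that value could be set. Epha7 passed the filter on dim probes through CD24hi-labelled RNA alone, where it was high, so its call is not independent of that filter. Efna3 (-0.39 ± 0.09) and Efnb3 (-0.19 ± 0.15) did not pass the test. The median of the 4 was -0.51. With the members, A-class ephrins measured were thus Efna1 and Efna4, both lower, and Efna3, not called.

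Genes that carry the signal into the receptor cell were mostly not called. Of 29 tested of 31 such genes, 5 were lower and 1 was higher in Lgr5-GFP-labelled RNA, a share below the 37.7% of all genes, and their median was -0.18. Vav3, a guanine nucleotide exchange factor, had the largest ratio at -2.62 ± 0.33 (limma, adjusted p = 0.00498), and Pik3r1, the regulatory subunit of PI 3-kinase, had -1.53 ± 0.66. Rap1a, a small GTPase of cell adhesion, was higher at 0.85 ± 0.18. The other lower genes, named after their values were seen, were the exchange factor Ngef (-1.38), the adaptor Grb7 (-1.04) and the kinase Abl1 (-0.52). Without the dye swap of replicate 1, 10 were lower and 4 higher, beside 30.7% and 26.9% of all genes.

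Of 9 tested of 10 genes of reverse signalling into the ephrin cell, 4 were lower in Lgr5-GFP-labelled RNA and the others were not called, with a median of -0.32. Limma called 37.7% of all genes, 21.5% lower, and the count was not tested against them. Tiam2, a guanine nucleotide exchange factor, had -1.11 ± 0.01 (limma, adjusted p = 0.00766). Grip1, a scaffold that binds the tail of B-class ephrins, was lower at a measured -0.96 ± 0.08 (limma, adjusted p = 0.0102), with no signal well above background in Lgr5-GFP-labelled RNA and no lower bound apart from that value. Grip1 too passed the filter on dim probes through CD24hi-labelled RNA alone, so its call is not independent of that filter. The phosphatase Ptpn13 (-0.95 ± 0.16) and the polarity gene Pard6b (-0.68 ± 0.26), named after their values were seen, were the other lower genes. Without the dye swap of replicate 1, 4 were lower and 2 higher, beside 30.7% and 26.9% of all genes. The median was then 0.05, so the sign of the median rested on that array.

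Of 9 tested of 10 genes of junctions and proteases through which Eph contacts sort cells, 1 was called. It was Afdn, which encodes the junction protein afadin and was lower (-0.93 ± 0.30; limma, adjusted p = 0.0170). E-cadherin (Cdh1) had -0.40 ± 0.23 and the ephrin-cleaving protease Adam10 0.00 ± 0.04, both not called. Of 10 tested of 11 regulators of Wnt and Tcf, 3 were lower and the others were not called, with a median of -0.29. Of all genes tested, 37.7% were called, 21.5% lower. Myc had -2.39 ± 0.05 (limma, adjusted p = 0.00498) and Ascl2, a stem cell factor, -1.31 ± 0.26 (limma, adjusted p = 0.00787). Axin2, a feedback inhibitor of Wnt named after its value was seen, had -1.13 ± 0.56. Ephb2 and Ephb3, the members known as targets of this pathway, were not called in the same fit, and the difference between them and these genes was not tested. Cdh1, Ctnnb1, Cdx1 and Cdx2 each stood in more than 1 list.

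Ephb4 and Efnb2 are also genes of blood vessels, so markers of other cells were counted. Of 14 endothelial markers, 6 were measured, at -0.97 to 0.65, and 3 of these were lower in Lgr5-GFP-labelled RNA. These counts and those of the other markers stood beside 21.5% of all genes lower and 16.2% higher. Egfl7 had -0.97 ± 0.31, Flt1 -0.58 ± 0.03 and Vwf -0.53, the last named after its value was seen. Egfl7 was well above background in Lgr5-GFP-labelled RNA on 1 of 3 arrays. Ecscr, also named after its value was seen, had 0.65 ± 0.38 and was not called (limma, adjusted p = 0.0508), but it was called higher without the dye swap of replicate 1 (0.84; limma, adjusted p = 6.93e-04). The defining markers Pecam1, Cdh5, Kdr and Tie1 did not pass the filter on dim probes. Summed over the 14 markers, signal over background was 1114 to 1510 in Lgr5-GFP-labelled RNA and 1516 to 2066 in CD24hi-labelled RNA on the 3 arrays other than the dye swap of replicate 1. The sums for the 11 epithelial markers were 138718 to 323264 and 224343 to 479695. The part of endothelial cells in the values of Efnb2 and Ephb4 was not tested. Of 12 stromal markers, 3 were measured and 1, Thy1 (-0.48 ± 0.09, well above background in Lgr5-GFP-labelled RNA on 1 of 3 arrays), was lower. Col1a2, named after its value was seen, had 0.44 ± 0.16, not called (limma, adjusted p = 0.0688), and was called higher without the dye swap of replicate 1 (limma, adjusted p = 0.0153). Of 20 immune markers, 5 were measured and 0 were called by limma (1 at an unadjusted p under 0.05). Without the dye swap of replicate 1, Cd14, named after its value was seen, was called lower at -0.40 (limma, adjusted p = 0.0209).

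**Figure D4:**
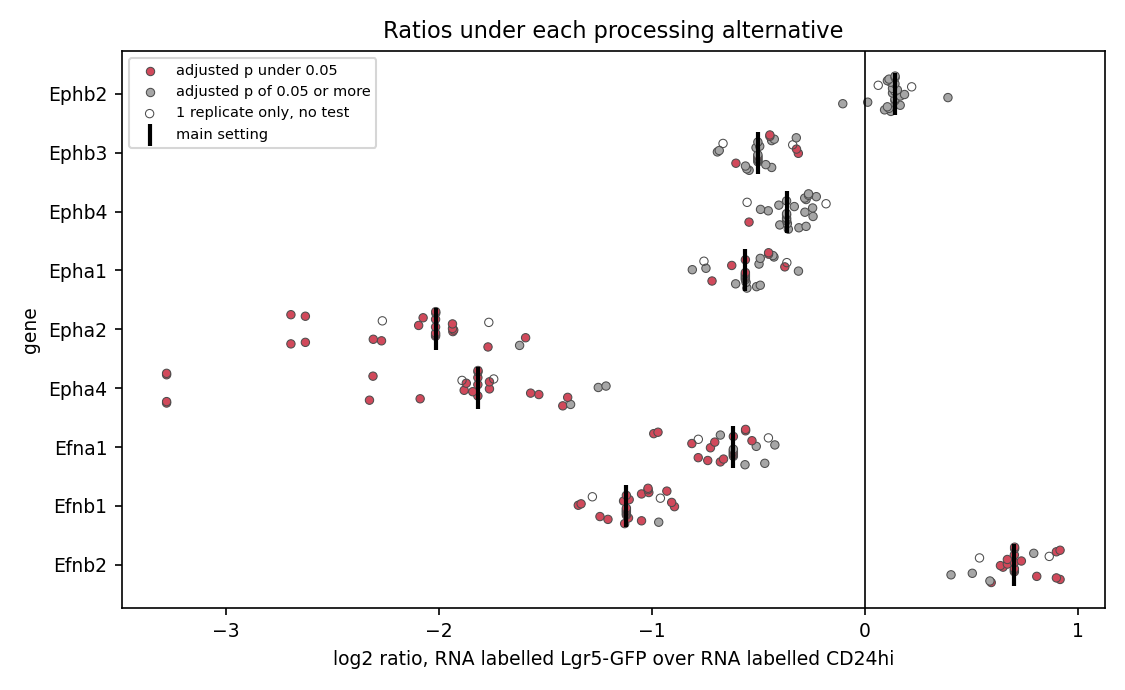
Log2 ratio of Lgr5-GFP-labelled RNA over CD24hi-labelled RNA (x axis) of the 9 members tested (y axis) under each processing alternative, 1 point per alternative, red where limma's adjusted p was under 0.05, grey where it was not and open where 1 replicate was left and no test was possible; the black bar is the value given in the text. Epha2 ran from -2.70 to -1.59, Epha4 from -3.28 to -1.22 and Efnb1 from -1.35 to -0.89, and of the 9 genes Ephb2 alone crossed 0 (-0.11 to 0.39).

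Over 26 processing alternatives, 8 of the 9 members tested kept the direction given above in each one that gave a value, and Ephb2 did not. Ephb3 ran from -0.69 to -0.31, Epha1 from -0.81 to -0.31, Ephb4 from -0.55 to -0.18, Efna1 from -0.99 to -0.42 and Efnb2 from 0.40 to 0.91. Calls moved more than directions did. Ephb3 was called in 6 alternatives and Epha1 in 9, among them the one in which marked spots were also kept out of the dye normalization (Ephb3 -0.45; limma, adjusted p = 0.0354, and Epha1 -0.45; limma, adjusted p = 0.0319), where 47.1% of all genes were called. That change to the dye normalization was 1 of 6 alternatives added after earlier results were known, beside 20 planned ones. With the arrays of a replicate as a random block, which tests the 4 arrays with a consensus correlation of 0.0194, 7 members and 46.3% of all genes were called, with Ephb3 (limma, adjusted p = 0.0403) and Epha1 (limma, adjusted p = 0.0377) added. At a correlation so near 0 that fit counts an array and its dye swap almost as separate replicates, so the added calls have no more replicates behind them.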

How the data were processed

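The labels state that 300 ng of total RNA went into each labelling, by linear amplification. Per the file headers, Feature Extraction 10.5.1.1 read the arrays. Its deposited intensity values are mean spot brightness and median local background per channel, unnormalized; the software also gave processed (background-subtracted, dye-normalized) intensities and, per the file headers, their log10 ratio, red over green. The authors' series table, on the log2 scale by comparison with those log10 ratios (slopes of 2.91 to 3.30 per array), leaves swapped columns unturned, and its normalization was not found in the sources used here.

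Spots with a non-uniform local background (77 on 1 array) were left out first. Background was corrected with normexp (offset 50, which draws dim ratios toward 0) in limma 3.58.1 (R 4.3.3), followed by global loess per array with control spots at weight 0. Marked spots were then set missing. An array and its swap gave 1 ratio per replicate, tested against 0 with Benjamini-Hochberg adjustment over all genes, or over all probes or probe pairs. The filter asked for signal well above background on every array in at least 1 population. A probe dim in 1 population could thus enter only through the other, where it was high, and its call is not independent of the filter. Marked spots counted in the filter, and nearly every spot on the dye swap of replicate 1 met it. The remaining probe with the highest mean signal over all 4 arrays, marked spots counted, stood for a gene. Slide and replicate coincide and cannot be told apart, and the number of arrays limits precision. All members and probes are named; of each other list, the 2 called genes with the largest ratio per direction. Of 14 member probes, 13 took their name through RefSeq (GRCm38.p6). The fit was tested on simulated data. The members and lists were chosen with earlier results of these data known. Protein sequences, exons and UTRs were not analysed here.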

Additional observations from a re-analysis of the deposited data

Results flagged for a closer look

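On 2 member probes the dye swap of replicate 1 lay far from the other 3 arrays, with a gap to the nearest array, divided by the whole range, above Dixon's 95% critical value for 4 values. The log2 ratio of Ephb3 there was -1.03, with a gap of 0.927 of the range. The log2 ratio of Efnb1 there was -1.71, with a gap of 0.844 of the range. The 6 member probes with a value on all 4 arrays were looked at, and chance flags about 1 in 20 sets of 4 independent values. The values here were arrays paired with their dye swaps, so that rate may not hold for them. On that array the median ratio of unmarked probes was -0.40, against -0.04 to -0.03 on the other arrays, and it was -0.09 when marked spots were kept out of the loess fit. With marked spots kept out of the loess fit, the mean over both replicates was -1.02 for Efnb1 and -0.45 for Ephb3, against -1.12 and -0.50 in the setting used. The part of the array's shift in both ratios was not tested. Without the array Efnb1 remained called and Ephb3 became called, as given above.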

How the results depend on the processing

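With 2 replicates and 1 residual degree of freedom, the counts of calls moved widely. With normexp fitted on all spots, limma called 0 genes (4969 at an unadjusted p under 0.05), 0 members (7 unadjusted) and 0 of their probes (8 unadjusted), against 5504 genes, 5 members and 7 probes in the setting used. With marked spots kept, 3 of 9 members and 4 of 12 probes were called, beside 3731 of 14801 genes. The processed signals with marked spots kept, a setting added after seeing the data, gave 3 of 9 members beside 4130 of 14801 genes. The dye swaps alone gave 467 genes, 1 member and 0 probes (2 at an unadjusted p under 0.05). Leaving out the first array of replicate 1 gave 495 genes, 1 member and 0 probes (2 unadjusted). Leaving out its dye swap gave 8371 genes, or 8344 in the series table and 8500 with the processed signals, both added after seeing the data; in these 5 members were called, without Ephb3 and Epha1, against 7. Median centring in place of loess turned Ephb2 to -0.11, with 1751 genes higher and 4915 lower against 2363 and 3141. The replicate numbers pair an array with its dye swap, and with them as a replicate block 6771 genes and 7 members were called (consensus correlation 0.0194). That fit counts an array and its swap almost as separate replicates. Efna1 lost its call in 7 alternatives, Efnb2 in 4, Epha4 in 3, and Epha2 and Efnb1 each in 1. In one replicate alone, with no test, the members' ratios ran from -2.27 to 0.86. The cause of the shifts was not tested, except that the dye swaps alone and the setting without the first array of replicate 1 tested fewer genes (5742 and 5881 against 14611). Low signal limits the sizes for Epha4 (in Lgr5-GFP-labelled RNA) and for the second Ephb2 probe (in both populations).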
